A study of Zea mays with 2 samples.

Results

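Compact loci are the short entries of the maize endosperm transcript tables: positions on chromosomes 1 to 10 whose span, end minus start plus 1, is 600 to 1100 bp and whose exact interval, chromosome with start and end, is listed for a single feature. Chromosome 10, the stretch from 10 to 40 Mb of chromosome 4 and the first 30 Mb of chromosome 7 are left out. Position and span chose the loci, and their RNA levels did not. Of 65535 features in the tables, 7425 (11.3%) met the rule. A further 986 features of this size lie in the areas left out, and 672 in the areas kept share their exact interval with another feature and are not counted as compact loci.

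The study profiled messenger RNA of the endosperm of the fl4 (floury4) mutant and of wild type (WT) maize (Zea mays), both at 19 days after pollination, with 1 library in each group. The labels give no inbred background and no treatment. The series design speaks of triplicates, but each library has a single FPKM value per feature (fragment density scaled by feature length and library size), so the spread between plants is not known and no test between the genotypes was possible. Every difference therefore describes this pair of libraries, and a bulk sample cannot tell fewer cells of a type from less RNA per cell. The features carry positions without gene names, so neither the tissue nor the altered gene could be checked against marker genes.

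Maize endosperm stores starch together with zeins, the alcohol-soluble storage proteins that are made on the rough endoplasmic reticulum and packed into protein bodies. Genes of the alpha-zein family have no introns and fall in a compact size class, as do many other short plant genes with a single exon. In floury mutants the kernel is soft and opaque, and in some of them protein bodies are malformed. The fl4 mutant has been described as carrying an alpha-zein variant whose signal peptide is not removed. Which compact loci are zein genes is not given by the tables, and no gene name is assigned here.

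The label of single-exon genes could not be tested, since the tables hold no exons. Spans divisible by 3 made up 31.6% of the compact loci and 31.4% of all features with a readable position, whereas a list of coding lengths without UTRs would consist almost wholly of such spans. The median span was 819 bp, against 2072 bp over all features.

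Compact loci were mostly weakly expressed. The median locus stood at 0.43 FPKM in fl4 and 0.40 FPKM in WT, against 1.45 and 1.40 FPKM for all features. The highest 10% began at 9.25 FPKM in fl4 and 8.95 FPKM in WT, and the highest 1% at 98.8 and 81.4 FPKM. An FPKM of at least 1 in either library was reached by 3024 loci (40.7%), against 61.2% of the features that are not compact loci. Of these 3024 loci, 2353 reached 1 FPKM in both libraries, 337 in fl4 alone and 334 in WT alone, and the other 4401 compact loci did not pass. Just inside this limit, 141 loci peaked at 1 to 1.1 FPKM, and just outside it 131 peaked at 0.9 to 1 FPKM.

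A few loci held most of the signal. All compact loci gave in sum 116760 FPKM in fl4 and 116436 FPKM in WT, 10.3% and 11.3% of each library's total. The most abundant locus alone gave 29.4% of the compact sum in fl4 and 32.2% in WT, and the 10 highest of each library gave 64.6% and 65.5%. Both libraries had 8 of their 10 highest and 19 of their 20 highest compact loci in common. Across the 2353 loci with at least 1 FPKM in both libraries, levels in fl4 and WT had a Spearman correlation of 0.89 and a Pearson correlation of 0.94 on log2(FPKM + 1), as a description over loci that share 2 libraries.

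The most abundant compact locus, at 44381572 to 44382522 of chromosome 6 (951 bp), stood at 34373 FPKM in fl4 and 37500 FPKM in WT. It is the highest feature of WT and was close to equal in the genotypes, with a log2 ratio of -0.13. All log2 ratios are log2((fl4 + 1)/(WT + 1)), in which the pseudocount of 1 FPKM understates differences of weak loci. The locus at 121390344 to 121391179 of chromosome 6 (836 bp) stood at 13572 FPKM in fl4 and 3237 FPKM in WT, 4.19-fold higher in fl4. An expressed compact neighbour 5.49 kb away (776 bp) stood at 7.83 and 4.25 FPKM and lay within 2-fold. On chromosome 9 the locus at 144385600 to 144386370 (771 bp) stood at 3941 FPKM in fl4 and 1691 FPKM in WT, 2.33-fold higher in fl4.

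Near the start of chromosome 4 lay 3 of the 10 most abundant loci, all lower in fl4. The locus at 5089368 to 5090254 (887 bp) stood at 3546 FPKM in fl4 and 10982 FPKM in WT. Its neighbour at 5140554 to 5141628 (1075 bp) stood at 2110 FPKM in fl4 and 6165 FPKM in WT. The locus at 5078342 to 5079419 (1078 bp) stood at 561 FPKM in fl4 and 2184 FPKM in WT. They were 3.10-fold, 2.92-fold and 3.89-fold lower in fl4 in that order.

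The other 4 of the 10 most abundant loci were within 2-fold. On chromosome 1 the locus at 161774739 to 161775462 (724 bp) stood at 7666 FPKM in fl4 and 5334 FPKM in WT. A locus of nearly the same span 215 kb further, at 161990940 to 161991666 (727 bp), stood at 6259 FPKM in fl4 and 6048 FPKM in WT. Their log2 ratios were 0.52 and 0.05, and the second turns negative when both libraries are scaled to equal totals without the 20 most abundant features, or centred on the median of all features. The locus at 172591201 to 172591987 of chromosome 7 (787 bp) stood at 1029 FPKM in fl4 and 1689 FPKM in WT, and that at 39092080 to 39092901 of chromosome 6 (822 bp) at 1295 and 1448 FPKM. A locus of 689 bp that lies 3.36 kb before the last one stood at 1324 FPKM in fl4 and 1171 FPKM in WT, so these abundant neighbours lay on opposite sides of equality, with log2 ratios of 0.18 and -0.16.

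**Figure D1:**
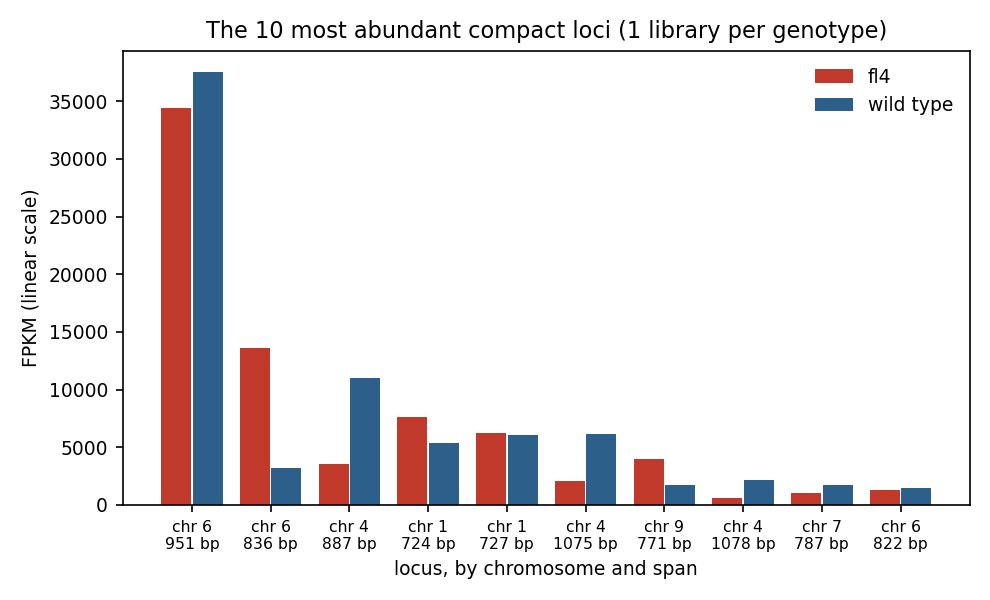
FPKM of the 10 most abundant compact loci in fl4 (red) and wild type (blue), 1 library each, on a linear axis, labelled by chromosome and span. The 836 bp locus of chromosome 6 stands at 13572 FPKM in fl4 and 3237 FPKM in WT, and the 3 loci of chromosome 4 are lower in fl4.

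The near equality of the 2 sums hid opposite differences. Among the 13 compact loci that reached 1000 FPKM, 5 were higher in fl4 by 15280 FPKM together and 8 were lower by 17168 FPKM together. Their sums were 78196 FPKM in fl4 and 80084 FPKM in WT. The other 7412 compact loci summed to 38564 and 36352 FPKM, a log2 ratio of 0.09. Without the loci in the 5 to 6 Mb window of chromosome 4 the log2 ratio of the compact sum was 0.19, against 0.004 with them.

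Most expressed compact loci differed little. Of the 3024 loci, 2665 (88.1%) lay within 2-fold, while 212 (7.01%) were 2-fold or more higher in fl4 and 147 (4.86%) 2-fold or more lower. Over all 38591 features with at least 1 FPKM, the background was 6.03% higher and 4.58% lower, 10.6% in either direction, beside 11.9% of the compact loci. These counts include loci listed at 0 in 1 library. Without them 10.8% of 2989 compact loci and 8.16% of 37558 features differed, and whether that gap exceeds the spread between plants could not be tested. The 2-fold limit describes size alone. At 8-fold or more the compact loci had 7 higher and 4 lower, 0.23% and 0.13%, against 0.91% and 0.56% of all features. Loci listed at 0 are included here, and the pseudocount keeps weak loci from reaching 8-fold, so these shares are not at like levels. Of the compact loci 1255 of 3024 peaked under 3 FPKM, against 10371 of 38591 features. Among the 15801 features reaching 10 FPKM, 185 were listed at 0 in WT and 121 in fl4. Among the far fewer compact loci at this level, 794, the counts were 1 and 0. Close to the 2-fold limits, 35 loci lay just past it on the higher side (log2 ratio of 1 to 1.1) and 45 just short of it (0.9 to 1), with 32 and 27 on the lower side.

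Passing the level limit in one library alone went with differing. Of the 337 loci that reached 1 FPKM in fl4 alone 112 were 2-fold higher, and of the 334 that reached it in WT alone 73 were 2-fold lower. These loci could enter through the library where they are high, so their counts are no support for a difference. Over all features, 2865 reached 1 FPKM in fl4 alone and 2536 in WT alone. All features had 2328 higher and 1768 lower with 1 FPKM in either library, and 1066 and 861 with it in both. Features of any span that passed in one library alone thus differed too, in a larger share than the compact loci. Among the 2353 loci with at least 1 FPKM in both libraries 100 were 2-fold higher and 74 lower (7.39%), against 5.81% of all features under the same limit.

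The median log2 ratio of the compact loci was 0.04, with quartiles of -0.32 and 0.38, against a median of 0.07 for all features. Its sign depends on the scaling. It was -0.03 when ratios were centred on the median of all features, and -0.07 with equal totals, which lowers log2 ratios by 0.14 where the pseudocount has no weight. With equal totals 171 compact loci were 2-fold higher and 168 lower, and with median centring 184 and 166. The size of the excess of higher loci thus depended on the scaling.

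**Figure D2:**
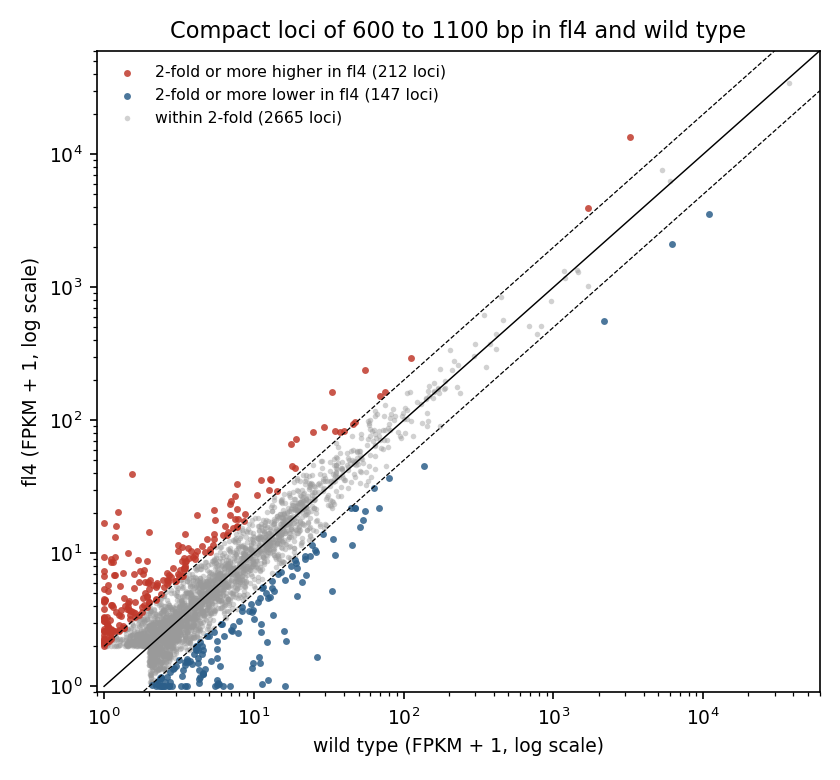
Each point is 1 of 3024 compact loci, with the WT value on the horizontal axis and the fl4 value on the vertical axis, both as FPKM + 1 on log scales. The solid line marks equality and the dashed lines 2-fold, beyond which 212 loci are higher in fl4 (red) and 147 lower (blue).

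The abundant compact loci were followed one by one. At least 100 FPKM in either library was reached by 82 loci, with levels of 44.2 to 34373 FPKM in fl4 (median 168 FPKM) and 32.5 to 37500 FPKM in WT (median 158 FPKM). Of these, 51 were above equality and 31 below, and 57 lay within 1.5-fold. Their median log2 ratio was 0.06, against 0.18 for all features at this level. Equal totals lower log2 ratios by about 0.14 at such levels, so the split around equality depends on the scaling. The 5 loci nearest to equality, with 131 to 1167 FPKM in fl4 and 129 to 1190 FPKM in WT, had log2 ratios of -0.03 to 0.03. Of the 82 loci, 7 (8.54%) were 2-fold or more higher and 4 (4.88%) 2-fold or more lower, beside 6.5% and 4.36% of all features at this level, or 10.9% in either direction. With equal totals both counts became 5.

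Besides the loci of chromosomes 6 and 9 already given, the 2-fold higher abundant loci lay on 4 chromosomes. A locus of 974 bp between 36 and 37 Mb of chromosome 3 had 162 FPKM in fl4 and 32.5 FPKM in WT. A locus of 967 bp in the 5 to 6 Mb window of chromosome 4 had 239 FPKM in fl4 and 54.3 FPKM in WT. These were the highest log2 ratios among the 82 loci, 2.28 and 2.12. The other 3 were closer to the limit. A chromosome 8 locus of 757 bp reached 291 FPKM in fl4 and 112 FPKM in WT. A chromosome 3 locus of 968 bp reached 162 and 74.1 FPKM, and a chromosome 6 locus of 1001 bp 151 and 68.9 FPKM. Of the 4 lower loci, 3 were the abundant loci of chromosome 4, and the fourth, of 697 bp on chromosome 1, stood at 44.2 FPKM in fl4 and 135 FPKM in WT.

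**Figure D3:**
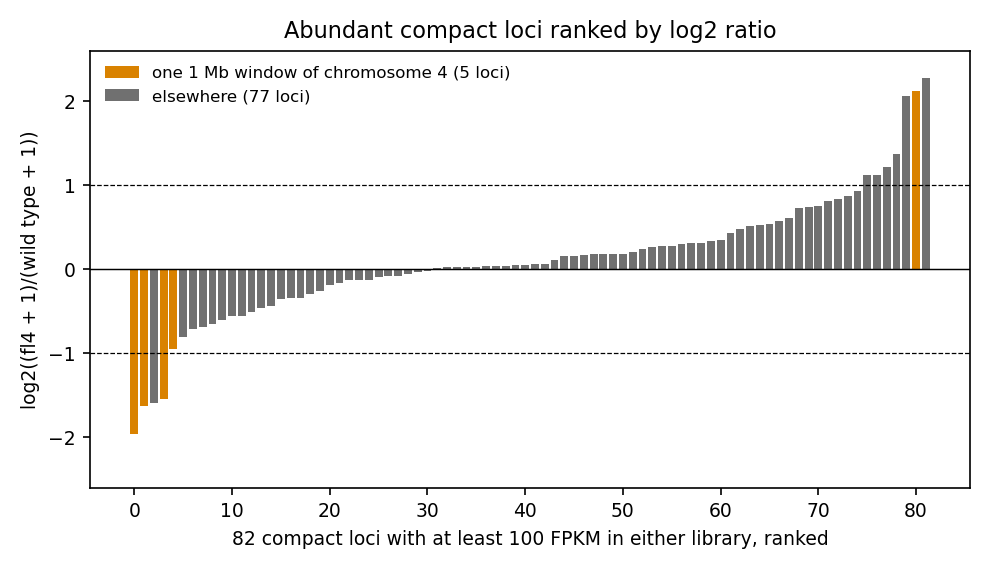
Log2 ratio of fl4 to wild type for the 82 compact loci with at least 100 FPKM in either library, ranked from lowest to highest, with dashed lines at 2-fold. The 5 loci of the 5 to 6 Mb window of chromosome 4 (orange) take 4 of the 5 lowest places and the second highest.

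This window of chromosome 4 held 7 differing loci among its 9 expressed compact loci, more than any other window of 1 Mb. Its first 5 loci lie within 66.6 kb and were all lower in fl4, with log2 ratios of -2.00 to -0.94 and sums of 6311 FPKM in fl4 and 19524 FPKM in WT. Besides the 3 abundant ones they include a locus of 1070 bp with 90.1 FPKM in fl4 and 174 FPKM in WT and one of 957 bp with 3.81 and 18.3 FPKM. The other 4 loci lie at least 327 kb further on and went in both directions. There a locus of 753 bp stood at 87.3 FPKM in fl4 and 28.6 FPKM in WT, and one of 775 bp at 2.81 and 1.14 FPKM, while one of 861 bp stood at 1.20 and 15.4 FPKM.

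The 3024 expressed compact loci lay in 1358 windows of 1 Mb, with at most 9 in a window. Of these windows 306 held a 2-fold difference, 262 of them a single one and 5 at least 3. With few loci per window and 11.9% of all loci differing, the number of single ones does not show that differences were scattered. In the 9 to 10 Mb window of chromosome 4 all 3 expressed loci were higher in fl4: 4.03, 2.78 and 10.03 FPKM in fl4, against 0.87, 0.29 and 2.66 FPKM in WT. In the 28 to 29 Mb window of chromosome 8 all 3 were lower, with 0.00115 to 3.69 FPKM in fl4, against 3.09 to 15.2 FPKM in WT. The 210 to 211 Mb and 235 to 236 Mb windows of chromosome 4 held 3 differing loci each, in both directions.

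By chromosome, the share of compact loci with a 2-fold difference ran from 7.37% of 285 on chromosome 6 and 7.58% of 343 on chromosome 5 to 15.4% of 358 on chromosome 3 and 16.0% of 325 on chromosome 4. Other features of the same chromosome areas stood at 9.54%, 8.98%, 11.4% and 12.2%. Chromosome 6 carried 48.5% of the FPKM of the expressed compact loci in fl4 and 42.4% in WT, sums of 56149 and 48951 FPKM. Most of this came from its 951 bp locus, with 34373 and 37500 FPKM, and its 836 bp locus, with 13572 and 3237 FPKM. Chromosome 4 carried 8.08% in fl4 and 19.3% in WT. Outside the window at 5 to 6 Mb, the compact loci of chromosome 4 gave in sum 2717 FPKM in fl4 and 2655 FPKM in WT, and 45 of its 316 loci (14.2%) differed.

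Compact loci differed more often in 2 stretches picked with earlier results known, as did the other features there, so their counts are no separate support. In the first 10 Mb of chromosome 4, 16 of 27 loci (59.3%) differed, 8 in each direction, and 9 of 18 without the window from 5 to 6 Mb, beside 29.4% of 228 other features. From 55 to 100 Mb of chromosome 3, 13 of 45 (28.9%) differed, 4 higher and 9 lower, beside 24.8% of 331 other features. Elsewhere in the areas kept 330 of 2952 compact loci (11.2%) and 9.84% of 31124 other features differed.

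The largest ratios belonged to loci of modest level. Among loci with at least 10 FPKM in one library and above 0 in both, the locus at 16890472 to 16891377 of chromosome 3 (906 bp) stood at 38.7 FPKM in fl4 and 0.53 FPKM in WT, a log2 ratio of 4.70. The locus at 150600939 to 150601951 of chromosome 1 (1013 bp) stood at 19.4 FPKM in fl4 and 0.23 FPKM in WT, a log2 ratio of 4.05. After these came loci with 15.2 and 0.21 FPKM (chromosome 1, 252 to 253 Mb, 769 bp), 12.2 and 0.18 FPKM (chromosome 6, 86 to 87 Mb, 690 bp) and 13.6 and 1.01 FPKM (chromosome 2, 45 to 46 Mb, 993 bp) in fl4 and WT. The sixth was the 974 bp locus of chromosome 3 described above. In 4 of these 6 the WT value was under 1 FPKM, where the ratio depends on the pseudocount.

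In the other direction, the locus at 28171934 to 28172760 of chromosome 8 (827 bp) stood at 0.00115 FPKM in fl4 and 15.2 FPKM in WT, a log2 ratio of -4.02. The locus at 43707032 to 43708081 of chromosome 3 (1050 bp) stood at 0.66 FPKM in fl4 and 25.6 FPKM in WT, a log2 ratio of -4.01. Then came loci with 0.12 and 11.4 FPKM (chromosome 2, 218 to 219 Mb, 744 bp), 0.04 and 10.4 FPKM (chromosome 1, 189 to 190 Mb, 647 bp), 1.20 and 15.4 FPKM (the 861 bp locus of chromosome 4) and 0.51 and 10.04 FPKM (chromosome 4, 176 to 177 Mb, 1027 bp) in fl4 and WT. None of the 6 reached 26 FPKM, and their weaker value was near or under 1 FPKM.

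Few expressed compact loci were listed at 0 in either library. Of the 3024 loci, 13 (0.43%) were listed at exactly 0 in fl4 and 22 (0.73%) at 0 in WT, beside 1% and 1.67% of all features. Such a 0 may be a failed estimate, since the tables hold no counts, and no fold is printed for these loci. Through the pseudocount all 13 and 22 are nevertheless among the 2-fold differences counted above. Among all features, values up to 40770 FPKM in fl4 stood beside a 0 in WT, so a 0 is not read as absence. The loci at 0 in WT had 1.02 to 15.9 FPKM in fl4 (median 1.90), and those at 0 in fl4 had 1.24 to 5.89 FPKM in WT (median 1.54).

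The strongest loci at 0 in WT had 15.9 FPKM in fl4 (chromosome 3, 127 to 128 Mb, 997 bp), 8.46 FPKM (chromosome 1, 45 to 46 Mb, 1021 bp) and 6.31 FPKM (chromosome 2, 71 to 72 Mb, 621 bp). At 0 in fl4 the 3 strongest all lay on chromosome 2, with 5.89 FPKM in WT (153 to 154 Mb, 765 bp), 5.26 FPKM (218 to 219 Mb, 815 bp) and 4.52 FPKM (144 to 145 Mb, 1100 bp). The second of these lies 0.92 kb from the 744 bp locus with 0.12 FPKM in fl4 and 11.4 FPKM in WT, so both neighbours were listed under 1 FPKM in fl4. The other 2 compact loci of this window, 157 kb and more before the pair, stood at 46.9 and 1.82 FPKM in fl4 and 43.1 and 1.16 FPKM in WT.

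Some compact loci could not be told apart by their values. For 23 of the 3024 loci (0.76%) another feature of the tables had exactly the same FPKM in both libraries (no difference in any printed digit), and for 21 of them it also had the same span. Such loci are reported as uncertain, since the values do not tell them apart. Among all features 1.18% had such a partner. Compact loci formed 9 such groups among themselves, 3 of them within 1 chromosome. A pair of 757 bp loci 41.4 kb apart, between 235 and 236 Mb of chromosome 4, had 20.8 FPKM in fl4 and 46.6 FPKM in WT at both positions, and accounts for both lower loci of that window. In another group, loci of 683 bp on chromosomes 2, 3 and 5 each stood at 1.49 FPKM in fl4 and 0.69 FPKM in WT. No locus of 100 FPKM or more had an identical partner, and without the 23 loci 208 were 2-fold higher and 145 lower.

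Neighbouring compact loci resembled each other at short range. For 145 pairs of consecutive expressed loci under 5 kb apart, the log2 ratios had a Pearson correlation of 0.37 and a Spearman correlation of 0.33, and 63.4% of pairs lay on the same side of equality. For 140 pairs 5 to 20 kb apart the correlations were 0.09 and 0.14, and for 1763 pairs 100 kb to 1 Mb apart 0.03 and 0.04. In the 22 pairs under 5 kb apart with both loci reaching 10 FPKM the correlations were 0.73 and 0.74, with 18 pairs on the same side. At the same level the 14 pairs 5 to 20 kb apart had correlations of -0.41 and -0.20, with 7 on the same side. Without the pairs of the 5 to 6 Mb window of chromosome 4, the values under 5 kb became 0.54 and 0.67 over 20 pairs. These values are descriptions over loci that share the same 2 libraries.

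**Figure D4:**
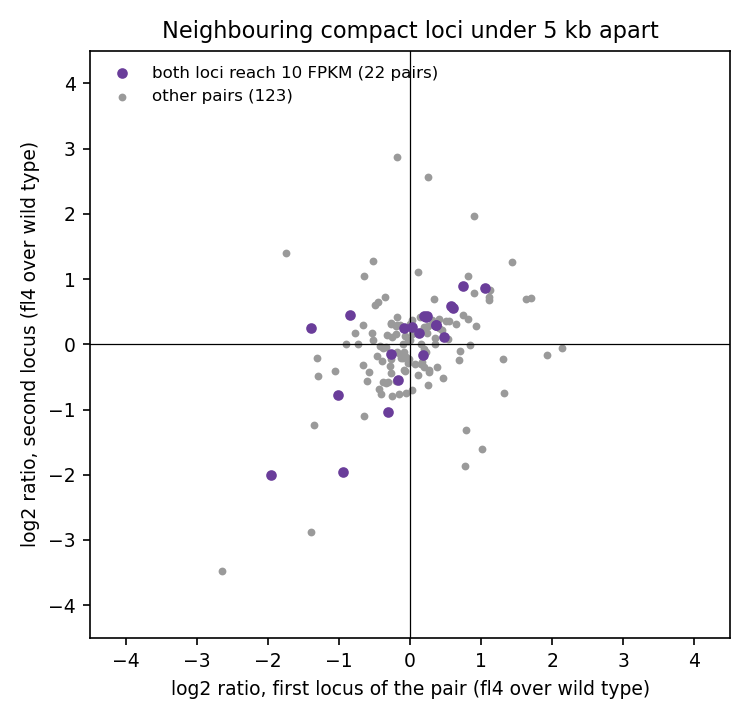
Log2 ratio (fl4 over wild type) of the first locus against that of the second, for 145 pairs of consecutive expressed compact loci under 5 kb apart. The 22 pairs with both loci reaching 10 FPKM (purple) lie mostly along the diagonal, and 18 of them have both ratios on the same side of 0.

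The share of differing loci had no order by distance to the nearest listed feature. It was 12.0% of 1050 loci with a neighbour under 1 kb away, 12.8% at 1 to 5 kb, 9.62% at 5 to 20 kb, 13.4% at 20 to 50 kb and 10.1% of 138 loci at 50 kb or more. Loci with a close neighbour passed the level limit more often, 45.7% of them under 1 kb and 36.6% at 50 kb or more. Whether these shares differ beyond the spread between plants could not be tested.

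Span went with the spread of the ratios from one span class to the next. Among intervals listed once in the same areas, 41.5% of expressed features under 300 bp differed 2-fold, 16.6% at 300 to under 600 bp, 11.9% at 600 to 1100 bp, 7.05% at over 1100 to 2000 bp, 3.33% at over 2000 to 5000 bp and 2.61% over 5000 bp. The distance between the quartiles of the log2 ratio was 1.59, 0.79, 0.69, 0.53, 0.36 and 0.30 in the same order. Features on repeated intervals of 600 to 1100 bp stood at 14.4% of 376. The compact loci thus lay inside a trend over all spans. In the 20 bp just inside the lower limit 12 of 128 loci differed and in the 20 bp just outside it 18 of 145, and at the upper limit 16 of 115 inside and 11 of 77 outside.

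Levels also differ between span classes, so the shares are given within levels. At 10 to 30 FPKM in the higher library 13.9% of 525 compact loci differed, beside 20.8% of 336 features of 300 to under 600 bp and 8.43% of 712 of over 1100 to 2000 bp. At 1 to 3 FPKM the values were 8.13%, 12.9% and 5.22%, and at 3 to 10 FPKM 14.8%, 20.2% and 8.25%. From 30 to 100 FPKM the compact loci and the next shorter class were alike at 15.5% and 15.4%, with 7.63% for the next longer class. From 100 to 1000 FPKM the compact loci stood at 8.70% (6 of 69), beside 10.1% of 1339 features of any span. The next shorter class stood at 11.4% of 35 and the next longer at 6.45% of 93. At 1000 FPKM or more 5 of 13 compact loci differed, beside 20.6% of 107 features of any span. Of these, 2 were higher and 3 lower, the lower ones all in the 5 to 6 Mb window of chromosome 4.

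**Figure D5:**
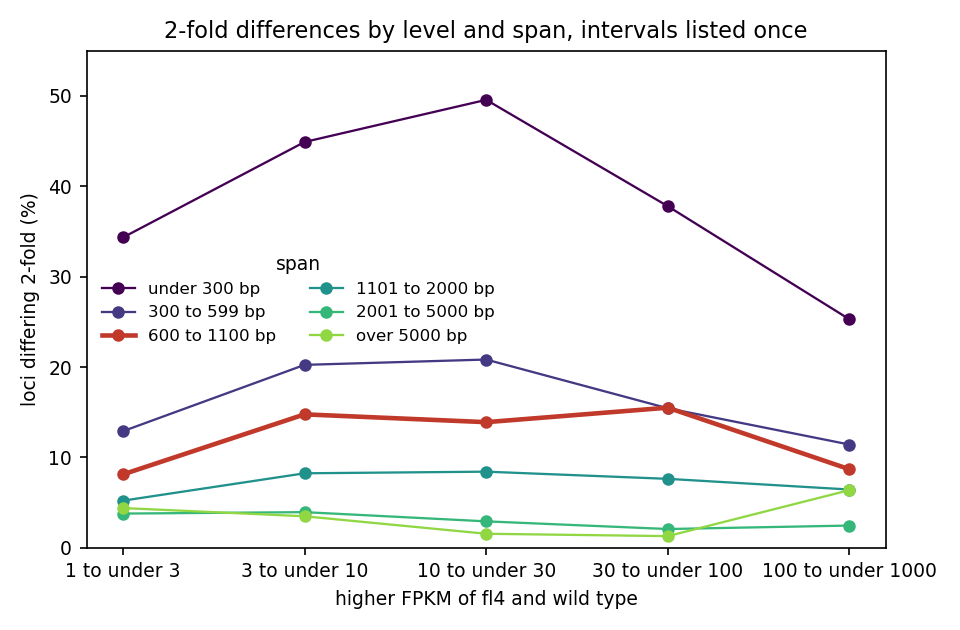
Share of features with a 2-fold difference (vertical axis, %) by the higher FPKM of the 2 libraries (horizontal axis), for 6 classes of span among intervals listed once. Compact loci (thick red line) lie between 8.13% and 15.5%, below the shortest class and above the classes over 1100 bp at each level drawn.

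Inside the compact range the share of differing loci in either direction was similar across spans, while the split between higher and lower loci varied without a steady order. The share of 2-fold differences was 12.3% from 600 to under 700 bp, 11.7% to under 800 bp, 11.7% to under 900 bp, 12.8% to under 1000 bp and 10.8% at 1000 to 1100 bp. The higher loci numbered 40, 48, 40, 41 and 43 in these classes and the lower ones 42, 30, 32, 28 and 15. The sums differed more between classes than the counts did, with 28558 FPKM in fl4 and 23023 FPKM in WT from 700 to under 800 bp, and 8270 and 13510 FPKM at 1000 to 1100 bp. At 1000 to 1100 bp the 2 loci above 1000 FPKM, both in the chromosome 4 window, held 2671 FPKM in fl4 and 8350 FPKM in WT.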

How the data were processed

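The authors deposited FPKM values, per the file headers, 1 per feature and library, for endosperm of fl4 and wild type. The submitters' processing notes name Bowtie 0.12.2. The program that quantified FPKM, the build and the annotation were not given in the sources used here. Each table ends at the row limit of older spreadsheet programs, and whether it was longer is not known. Positions are printed as the files give them. Depth is unknown, and products of FPKM and span showed no steps of single reads, so counts were not recovered.

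Python 3.11.15 with numpy 2.4.6, pandas 2.3.3 and scipy 1.17.1 was used. Ratios are log2((FPKM + 1)/(FPKM + 1)), and loci needed 1 FPKM in either library. Features whose positions read as decimals (8) were left out. Loci named are the 10 most abundant, the 6 largest and 6 smallest ratios from 10 FPKM with both values above 0, and the 3 strongest at 0 in each library. The 5 loci of 100 FPKM nearest equality are given as ranges. Other loci, windows and identical values were singled out after values were seen. The members and lists were chosen with earlier results of these data known. Alternatives covered pseudocount, filter, fold, scaling, span limits, repeated intervals and areas left out.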

Additional observations from a re-analysis of the deposited data

How the results depend on the processing

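Among 77 values under other settings, 34 kept within set limits (1.5 times for a count, the 95% binomial interval of 0.0149 to 0.0564 for the median, 0.1 on the log2 scale for the sum), 38 moved and 5 reversed. The interval for the median is over loci of this pair of libraries, treats them as independent and measures no spread between plants. Against 212 compact loci 2-fold higher and 147 lower, a pseudocount of 0.1 FPKM gave 358 and 303, and one of 5 FPKM gave 52 and 38. The counts were 115 and 76 from 5 FPKM, 105 and 93 for spans up to 850 bp, 107 and 54 for spans over 850 bp, 473 and 386 at 1.5-fold and 36 and 23 at 4-fold. With 1 FPKM in both libraries, chosen after the data were seen, they were 100 and 74, and spans of 500 to 1200 bp gave 224 lower. The number of loci tested changed with filter and span, and so did the shares, from 7.01% higher and 4.86% lower. For spans up to 850 bp 6.35% of 1654 loci were higher and 5.62% lower. For spans over 850 bp 7.81% of 1370 loci were higher and 3.94% lower. From 5 FPKM 8.77% of 1311 loci were higher and 5.80% lower. At 1.5-fold 15.6% of compact loci were higher and 12.8% lower, against 11.9% and 9.67% of all features. At 4-fold the shares were 1.19% and 0.76%, against 2.05% and 1.24%, so the order changed with the threshold. The shares by fold include loci listed at 0 and are not at like levels. The causes of the changes were not tested. The median log2 ratio (0.04) was 0.0125 without a filter, 0.0776 from 5 FPKM, -0.0297 after median centring and -0.0735 with equal totals. The log2 ratio of the compact sum (0.004) was -0.14 with equal totals, -0.33 for spans over 850 bp, 0.47 for spans up to 850 bp, -0.0617 with repeated intervals, 0.15 over all of chromosomes 1 to 10 and 0.19 without the 5 to 6 Mb window of chromosome 4, which was chosen after the data were seen. Of the loci of 100 FPKM, 7 were higher and 4 lower, against 16 and 10 from 50 FPKM, 15 and 10 at 1.5-fold, and 3 and 0 at 4-fold, with 4 higher from 200 FPKM and 1 lower without that window. Loci at 0 in fl4 and in WT (13 and 22) were 2 and 4 from 5 FPKM in the other library, 275 and 376 without a limit, 7 and 14 for spans up to 850 bp and 6 and 8 for spans over 850 bp. No paired analysis was possible because fl4 and WT have 1 library each, and neither could be left out. The files give no depth from which a limit could be set.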

Other observations

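Features of the same size outside the numbered chromosomes were few. The 15 unplaced features of 600 to 1100 bp together gave 566 FPKM in fl4 and 835 FPKM in WT, with a highest value of 556 and 826 FPKM. Of the 5 that reached 1 FPKM, 0 differed 2-fold. The 20 mitochondrial features of this size together gave 4.67 FPKM in fl4 and 4.84 FPKM in WT, and the 5 chloroplast features to 0.23 and 0.21 FPKM.

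The 335 repeated intervals of 600 to 1100 bp carry up to 3 features each. Summed per interval, 268 reached 1 FPKM, of which 24 were 2-fold or more higher in fl4 and 13 lower. Their sums were 33090 FPKM in fl4 and 39962 FPKM in WT, a log2 ratio of -0.27.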
